A study of Saccharomyces cerevisiae with 2 samples.

Results

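The 8 nuclear genes for tyrosine tRNA, tY(GUA), were examined in small RNA of Saccharomyces cerevisiae cells in S phase, with 1 library of WT cells, which carry CDK1, and 1 library of cdk1-as1 mutants, in which a phenylalanine of the Cdk1 ATP pocket is changed to glycine and the kinase is weakened even without inhibitor. The members are all rows of the side-by-side table named tY(GUA) outside the mitochondrial genome, 8 of the 252 listed tRNA genes and of the 239 nuclear ones, and the RefSeq annotation also holds 8 nuclear genes for this tRNA. For both strains α factor was added at 15 mg/L for 3 h, the pheromone was washed away, and cells were released into YPD alone or with nocodazole at 10 mg/L, the labels not saying which, and harvested in S phase as judged by microscopy. The study also reports a check by flow cytometry that the cells used for this RNA were in S phase. The labels name no inhibitor treatment. The study asked how Cdk1 affects tRNA synthesis in S phase, and it focused on genes with introns because their transcripts start out as unspliced precursors. It cautions that modified bases of mature tRNA may hinder sequencing, which probably tilts its data toward new, unmodified tRNA. The listed values per gene do not separate spliced from unspliced RNA. In RNA of a whole culture, fewer cells at a given stage and less RNA per cell cannot be told apart.

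RNA polymerase III makes all nuclear tRNA. TFIIIC binds the A box and the B box inside the gene and places TFIIIB upstream of it, and the polymerase stops at a run of T after the gene. Tyrosine tRNA reads the codons UAC and UAU with the anticodon GUA. In the unspliced transcript the intron pairs with the anticodon, and it is needed for the pseudouridine in the middle of the anticodon before it is spliced out. The genes are known as the ochre suppressor loci, because a change of the first anticodon base lets the tRNA read the stop codon UAA, and suppressors were mapped to each of them.

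The whole family holds only 2 gene sequences, which are shown because they decide which fragments can be told apart. The intron is in capitals, and letters are those of the R64 reference, 5′ to 3′ in the direction of transcription.
SUP2, SUP3 and SUP4: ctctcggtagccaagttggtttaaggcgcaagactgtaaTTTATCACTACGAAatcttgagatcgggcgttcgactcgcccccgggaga
SUP5, SUP6, SUP7, SUP8 and SUP11: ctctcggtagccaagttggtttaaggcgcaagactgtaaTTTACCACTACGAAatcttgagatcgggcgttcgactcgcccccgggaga
Each gene is 89 nt long, with exons of 39 and 36 nt around an intron of 14 nt. Counted from the first base of the gene, the difference is T44C, which lies at position 5 of the intron, and there is no other. The 75 nt of exon sequence are the same in all 8 genes, so spliced tyrosine tRNA carries nothing that tells the genes apart, and a fragment that lies within the gene separates the 3 genes with T from the 5 genes with C only if it spans this intron base. No other listed nuclear tRNA gene has either sequence.

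The genes are spread over 5 chromosomes. Those with T at this base are tY(GUA)D (SUP2), on chromosome IV from 946312 to 946400, tY(GUA)O (SUP3), on chromosome XV from 288192 to 288280, and tY(GUA)J2 (SUP4), which spans 542956 to 543044 of chromosome X. Those with C are tY(GUA)M1 (SUP5), on chromosome XIII from 168795 to 168883, tY(GUA)F2 (SUP6), on chromosome VI from 210619 to 210707, tY(GUA)J1 (SUP7), on chromosome X from 354244 to 354332, tY(GUA)M2 (SUP8), on chromosome XIII from 837928 to 838016, and tY(GUA)F1 (SUP11), on chromosome VI from 167437 to 167525. SUP4 and SUP6 lie on the reverse strand and the other 6 on the forward strand.

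As deposited, the level of all 8 genes was below WT in the mutant, in FPKM. By its name FPKM scales fragments to gene length and sequencing depth, but how spike-ins entered the deposited values was not given. Among the 191 nuclear tRNA genes measured in both strains 91.1% were lower, so 8 of 8 lies near the background. Lower by at least 2-fold were 2 of the 8 genes, against a background of 67.0%. Of the 191 genes 97 had less than 1 count in either library. With 1 library per strain nothing here was tested between the strains, and each value is a description of these libraries.

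SUP2 and SUP3 had the highest level of the family in both strains, and their values were identical. Each had 150214 FPKM in WT cells against 61252 in the mutant, from an estimated count of 52.8 and 24.1. This is 40.8% of the WT level, a log2 ratio of −1.29. In WT 14 of the 232 listed nuclear genes had a higher FPKM than SUP2 and SUP3, and in cdk1-as1 15 of 198.
SUP5, SUP7, SUP8 and SUP11 also shared their values, 88324 FPKM in WT cells against 53705 in the mutant, from 29.0 and 22.1 counts per gene. They stood at 60.8% of WT, a log2 ratio of −0.72.
SUP6 had 47943 FPKM in WT cells against 39816 in the mutant, with a log2 ratio of −0.27. Its estimated count went the other way, from 14.7 in WT to 18.4 in cdk1-as1.
SUP4, the locus used in much of the classical work on suppressor tRNA, had the lowest level of the family in each strain. It stood at 23840 FPKM in WT cells against 20869 in the mutant, with a log2 ratio of −0.19, at 8.33 and 7.75 counts. In WT 92 of 232 nuclear genes lay above it.
The order of the 4 levels was thus the same in both strains. In FPKM, the higher the level in WT, the lower the log2 ratio was, but the WT level is itself part of that ratio. In counts this order did not hold, as SUP6 lay at 0.33 and SUP4 at −0.10. The highest level was 6.30 times the lowest in WT and 2.94 times the lowest in cdk1-as1.

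**Figure D1:**
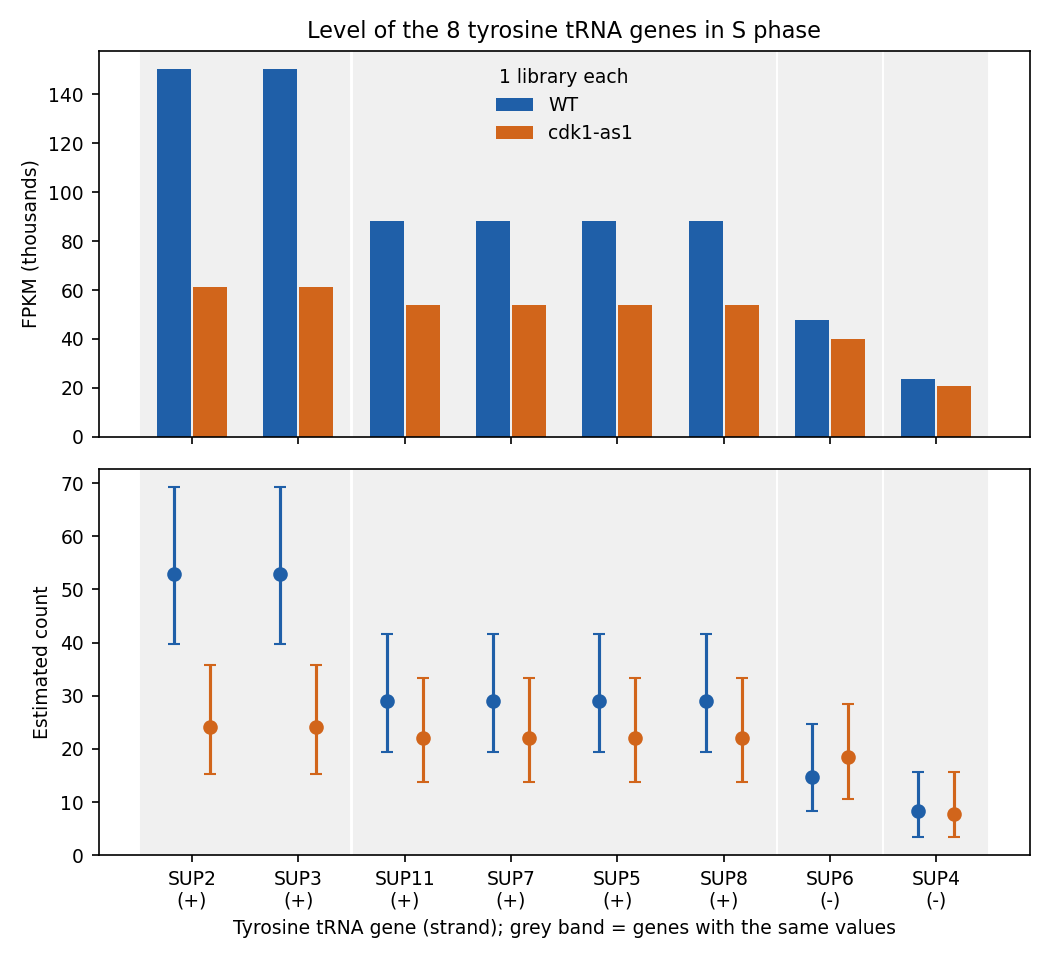
Level of each tyrosine tRNA gene in WT (blue) and cdk1-as1 (orange), 1 library each. Upper bars show FPKM divided by 1000, lower points the estimated count with its 95% Poisson interval, and grey bands join genes with the same values. Each interval is that of the count listed per gene, and genes in a band are not separate measurements. The levels run from 150214 FPKM for SUP2 and SUP3 down to 23840 for SUP4 in WT, and from 61252 to 20869 in cdk1-as1.

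Not all neighbours in this order differ beyond counting error. With counts summed over genes of the same values, SUP2 and SUP3 had in WT 1.82 times the count per gene of the SUP5 group (95% exact binomial interval 1.39 to 2.40). The SUP5 group had 1.97 times that of SUP6 (1.13 to 3.57), and SUP6 had 1.77 times that of SUP4 (0.746 to 5.11), so only the last step was not separable from equal counts. In cdk1-as1 none of the 3 steps was separable, with folds of 1.09 (0.743 to 1.55), 1.20 (0.739 to 2.18) and 2.38 (0.931 to 5.98). These intervals, and those of count ratios below, cover counting error only. They hold only if a count is a sequenced fragment, which the sources used here do not settle. Intervals were taken over summed counts because fragments within genes of the same sequence cannot be assigned to a locus. They do not cover how fragments that miss the intron base were allotted between T and C, or how fragments were allotted to a strand. The steps therefore cannot show that the loci differ in level.

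The 4 pairs of values correspond to intron sequence and strand. SUP2 and SUP3 carry T on the forward strand, SUP4 carries T on the reverse strand, SUP5, SUP7, SUP8 and SUP11 carry C on the forward strand, and SUP6 carries C on the reverse strand. SUP4 therefore differed from SUP2 and SUP3 in value although all 89 bases are the same. In WT the count of a forward gene with T was 6.35 times that of SUP4 (95% interval 3.24 to 15.7), and in cdk1-as1 3.11 times (1.41 to 7.34). As the gene sequence is the same, these intervals do not cover how fragments were allotted to a strand. For the sequence with C, the step between the strands is that from the SUP5 group to SUP6, given above. The same division is found in the whole table, where the 239 nuclear genes form 79 groups of 1 sequence on 1 strand and hold 80 distinct pairs of values, no pair being shared by more than 1 group. In 1 group of serine genes copies with the same sequence and strand, SUP17 and SUP16, held different values, and in the other 43 groups of more than 1 copy the values were identical. For the tyrosine genes the values do not resolve the loci within a group. What sets strands apart in the deposited values was not tested.

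**Figure D2:**
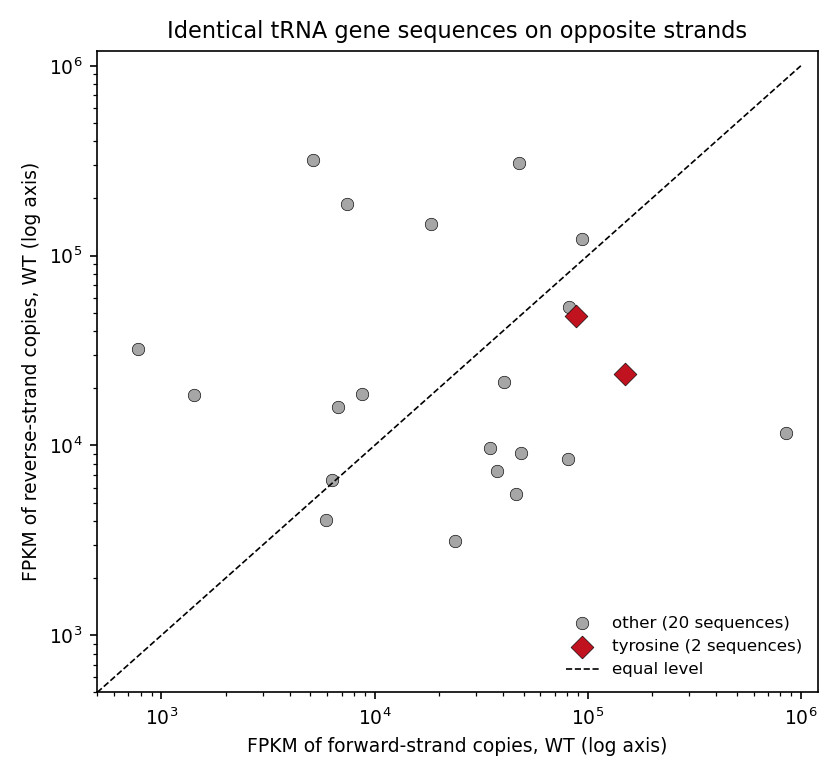
FPKM in WT of tRNA genes with the same sequence on opposite strands, forward copies on the x axis and reverse copies on the y axis, both log axes, 1 point per sequence. The 2 tyrosine sequences (red diamonds) lie below the dashed line of equal level at 150214 against 23840 FPKM and at 88324 against 47943, and of the 22 sequences drawn 12 lie below it and 10 above. For the sequence whose forward copies differ in value the higher copy is drawn.

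The letters around the genes differ between loci. The 50 bases before and the 20 bases after the gene are given for SUP2 and SUP3, which have the same gene sequence, strand and values, and for SUP11 and SUP6, which have the same gene sequence on opposite strands. The T run after the gene is in capitals.
SUP2 before: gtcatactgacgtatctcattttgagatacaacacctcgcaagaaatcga
SUP3 before: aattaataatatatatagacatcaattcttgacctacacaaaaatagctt
SUP11 before: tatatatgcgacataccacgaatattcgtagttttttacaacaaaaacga
SUP6 before: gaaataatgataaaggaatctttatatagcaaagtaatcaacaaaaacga
SUP2 after: TTTTTTTatgtcaagcacct
SUP3 after: taTTTTTTTacttttgcaca
SUP11 after: taTTTTTTTaaatcttgcag
SUP6 after: taTTTTTTTctgaaattttt
SUP2 and SUP3 share 11 of the 50 letters before the gene at the same distance from it, SUP3 and SUP4 share 12, and SUP11 and SUP6 share 22, with the last 12 letters before the gene and the first 9 after it the same. As the table gives 1 value to all tyrosine genes of the same sequence and strand, it cannot show whether the flanks bear on the level of a locus.

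All 8 genes hold the letters GTTCGANTC, a core of the B box, and AGTNGG, a core of the A box. On either strand of the gene the same letters are found in 40.2% and 36.0% of the 239 nuclear genes, and the matches do not overlap each other in the tyrosine genes. All 8 have a run of at least 7 T within 20 bases of the gene, as do 53.1% of nuclear genes, with 8 T after SUP5 and 7 after the others. The letters TATATA lie within 50 bases before 3 of the 8 genes, SUP3, SUP6 and SUP11, and before 6.28% of nuclear genes. Ty elements insert near tRNA genes and leave long terminal repeats behind. A repeat lies within 500 nt of 5 of the 8 genes, at 16 nt from SUP2, 113 nt from SUP5, 163 nt from SUP8, 205 nt from SUP7 and 403 nt from SUP4, against 63.6% of nuclear tRNA genes. An annotated replication origin lies within 500 nt of 2 of the 8, at 21 nt from SUP11 and touching SUP8, against 7.95%. The other repeats are farther away, up to 12402 nt from SUP3.
The nearest protein-coding genes lie from 139 nt (YOL019W-A, after SUP3) to 628 nt (AIM22, before SUP7) away. They include AMD2, for a putative amidase, 406 nt after SUP2, and MIC19, for a subunit of the mitochondrial MICOS complex, 178 nt before SUP11. PTR3, for a part of the amino acid sensor at the plasma membrane, lies 229 nt before SUP6. YKU70, for a subunit of the Ku complex that binds DNA ends, lies 170 nt after SUP8. Levels of these coding genes were not measured in the tRNA tables.

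Summed over the 8 genes, tyrosine tRNA had 725507 FPKM in WT cells against 398008 in the mutant, 54.9% of the WT level or a log2 ratio of −0.87. The summed count was 245 in WT (95% Poisson interval 215 to 278) and 163 in cdk1-as1 (139 to 190). Its log2 ratio was −0.59 (95% exact binomial interval −0.88 to −0.30), or 66.6% of WT. The count of all nuclear tRNA genes came to 2888 in WT cells and 1505 in the mutant, so tyrosine genes held 8.47% of nuclear counts in WT (exact binomial interval 7.49 to 9.56) and 10.8% in cdk1-as1 (9.30 to 12.5). With both libraries scaled to the same nuclear total, the log2 ratio of the sum turned positive, 0.38 in FPKM and 0.35 in counts (0.06 to 0.64). Equal totals add 1.25 to each log2 ratio of FPKM and 0.94 to each log2 ratio of counts, and they take out by construction any change that all nuclear tRNA genes share.

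In summed counts the difference between the strains was larger for the intron sequence with T, most of it from SUP2 and SUP3. The genes with T, SUP2, SUP3 and SUP4, summed to 114 counts in WT cells against 55.9 in the mutant, with a log2 ratio of −1.03 (95% interval −1.51 to −0.55). The genes with C, which are SUP5, SUP6, SUP7, SUP8 and SUP11, summed to 131 and 107 counts, a log2 ratio of −0.29 (−0.67 to 0.09). The log2 ratio of the genes with T lay below that of the genes with C by −0.74 (exact conditional interval −1.36 to −0.12), and among forward genes alone by −0.74 (−1.43 to −0.10). A scaling factor common to all genes of a library cannot change this difference, and the split by intron base was compared after the values were seen. In FPKM the difference between genes with T and genes with C was −0.52. The intervals do not cover how fragments that miss the intron base were allotted, so they cannot show that the sequences differ. On the reverse strand the order was not the same in both measures. SUP4, with T, lay at −0.19 in FPKM against −0.27 for SUP6, with C, and at −0.10 in counts against 0.33, a difference of −0.43 whose interval of −2.23 to 1.71 includes 0. Genes with C held 53.4% of tyrosine counts in WT (exact binomial interval 47.0 to 59.8) and 65.7% in cdk1-as1 (57.8 to 72.9).
The forward genes summed to 222 counts in WT cells against 137 in the mutant, with a log2 ratio of −0.70 (−1.01 to −0.38). For the reverse genes, SUP4 and SUP6, the sums were 23.0 and 26.2, a log2 ratio of 0.19 (−0.69 to 1.05). The difference between the strands was −0.88 with an interval of −1.81 to 0.06, which includes 0 and does not cover how fragments were allotted to a strand.

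**Figure D3:**
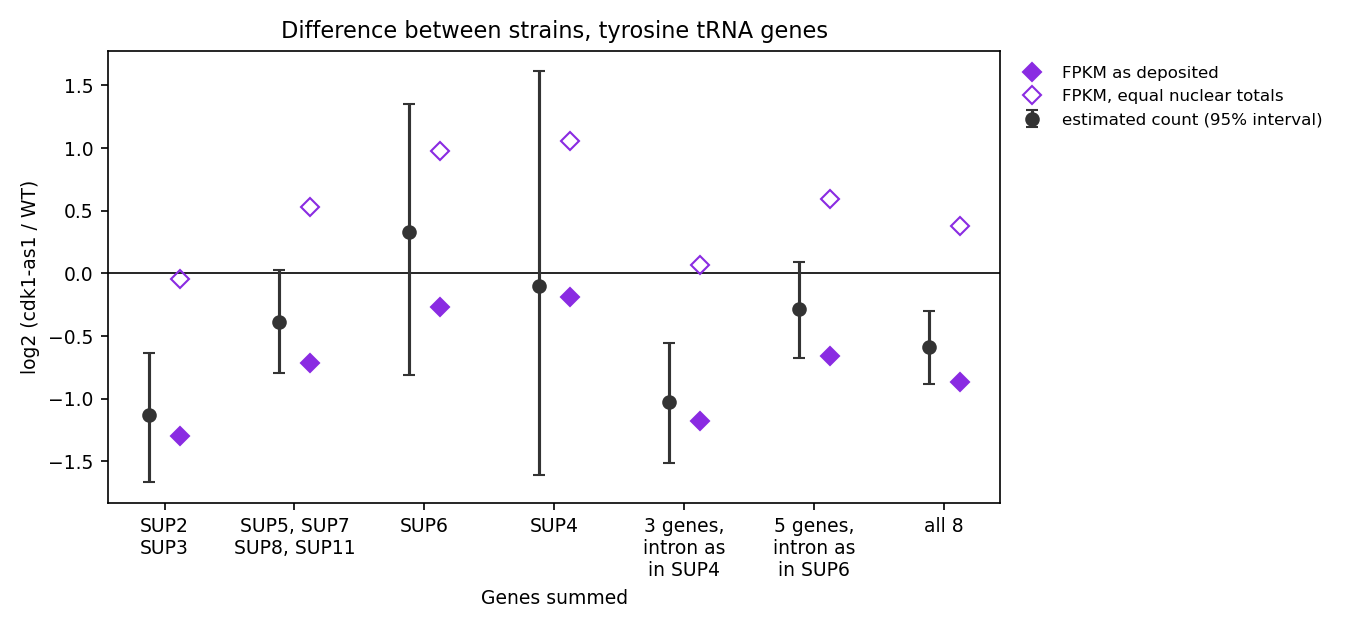
log2 ratio of cdk1-as1 to WT for summed groups of tyrosine tRNA genes, with estimated counts as points with 95% exact binomial intervals, FPKM as filled diamonds and FPKM at equal nuclear totals as open diamonds. The genes with T in the intron lie at −1.03 in counts and those with C at −0.29. Equal totals bring the FPKM ratio of the whole family from −0.87 to 0.38.

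At equal FPKM totals 2 of the 8 genes, SUP2 and SUP3, were lower in cdk1-as1, both at −0.05, against a background of 63.4% of nuclear genes. The other 6 then lay above 0, at 0.53 for the SUP5 group, 0.98 for SUP6 and 1.06 for SUP4. By estimated count 7 of 8 were lower, against 82.7%, SUP6 being the exception, and at equal count totals 2 of 8, against 59.7%. The FPKM ratio was below the count ratio for every member, by −0.16 for SUP2, −0.33 for the SUP5 group, −0.60 for SUP6 and −0.09 for SUP4. All members are 89 nt long, so within a library the total number of fragments that a count and its FPKM imply would be the same for each if FPKM followed the count. This implied total ranged from 3446 to 3952 in WT and from 4171 to 5206 in cdk1-as1, with SUP6 at the lowest total in WT and the highest in cdk1-as1.

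Among other nuclear genes with an intron, 39 of 46 were lower, with a median log2 ratio of −0.99 against −0.72 for the tyrosine genes and −1.48 for all 191 nuclear genes with both values. Of the 46 genes 13 had less than 1 count in either library, and of the tyrosine genes 0 of 8. The 137 intronless genes had a median of −1.65, with 127 lower. Of these 84 had less than 1 count in either library, as did 97 of the 191, so both medians rest largely on very low counts. In summed counts the intronless genes lay at −1.02 (−1.15 to −0.89).
The other aromatic amino acids are also served by genes with introns. The 10 phenylalanine genes tF(GAA) had a median of −0.99 with 8 lower, and their summed counts had a log2 ratio of −0.59, the difference of the tyrosine genes from them being 0.00 with an interval of −0.37 to 0.38. With identical values counted as 1, the median was −0.24 for the phenylalanine genes, 3 of 5 values being lower, and −0.49 for the tyrosine genes, 4 of 4 being lower, so the order of the 2 families turned. Counted this way, 61 of 68 values of all nuclear genes were lower. The 6 tryptophan genes tW(CCA) had a median of −1.44 with 6 lower. Their summed counts had a log2 ratio of −0.77, and the tyrosine genes lay above it by 0.18 (−0.36 to 0.74). Against the other 46 intronic genes the difference was 0.29 (−0.04 to 0.62). Against the other 231 nuclear tRNA genes together it was 0.39 (0.08 to 0.70), and this interval lies above 0.

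**Figure D4:**
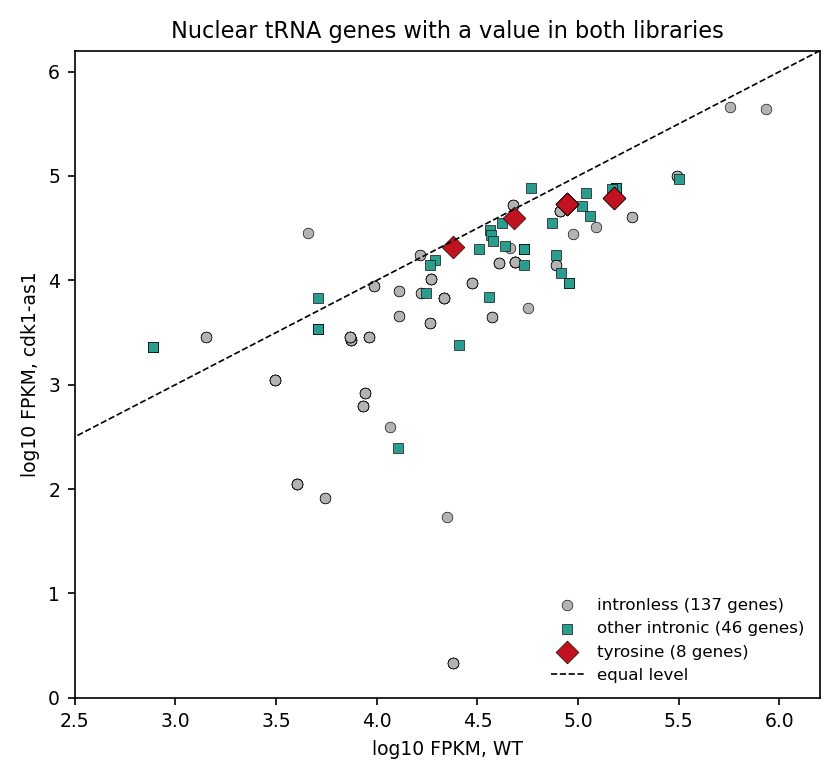
log10 FPKM in cdk1-as1 against log10 FPKM in WT for the 191 nuclear tRNA genes with both values, with tyrosine genes as red diamonds, other intronic genes as green squares and intronless genes as grey circles. Genes with the same values overlap, so the 8 tyrosine genes show as 4 diamonds, all below the dashed line of equal level, with log2 ratios from −1.29 to −0.19.

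The nearest gene outside the family, by distance in log2 FPKM over the 2 libraries, was the serine gene tS(GCU)F for SUP2 and SUP3 (distance 0.30). For the SUP5 group it was the leucine gene tL(CCA)D (0.24), for SUP6 the phenylalanine gene tF(GAA)B (0.26) and for SUP4 the lysine gene tK(UUU)P (0.44).

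Nonsense suppressors also arise in leucine and serine tRNA genes, and 8 such nuclear genes named SUP had values in both libraries, of which 7 were lower, with a median of −1.33. Leucine gene SUP51 had 308655 FPKM in WT cells against 99024 in the mutant, with a log2 ratio of −1.64. The leucine genes SUP53 and SUP54 both lay at −0.59 in FPKM, at counts of only 2.28 and 0.708 whose log2 ratio was −1.69 (−6.88 to 3.26), and SUP56 lay at −1.02. Of the serine genes, SUP61, the single-copy gene for its anticodon, lay at −2.39 with counts of 15.3 and 1.54, SUP19 at −1.93 and SUP17 at −1.76. SUP16 was the exception, with 4565 FPKM in WT cells against 28560 in the mutant, with a log2 ratio of 2.65 at counts of only 0.953 and 8.01. SUP17, at counts of 25.6 and 9.48, has the same sequence and strand as SUP16. Fragments within these genes cannot be assigned to either locus, so their opposite ratios are not separate results.
The mitochondrial tyrosine gene tY(GUA)Q, which is transcribed by the mitochondrial RNA polymerase and not by RNA polymerase III, had 6814 FPKM in WT cells against 3004 in the mutant, with a log2 ratio of −1.18. The estimated counts, 4.18 and 4.40, gave a log2 ratio of 0.07 with an interval of −2.42 to 2.42, so no difference was detectable at these counts.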

How the data were processed

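Per the study's methods, small RNA was purified with a miRNA kit, sequenced as paired-end reads and analysed on Ensembl's R64 assembly, and ERCC spike-in RNA served for normalization. The build in the submitters' processing notes is sacCer3. The aligner, the counting program and how spike-ins entered each column were not given in the sources used here. The authors deposited an estimated count (not whole) and an FPKM value per tRNA gene for each library, and a side-by-side table of RPKM values that gives 0.1 to absent genes. In the members its RPKM equals the FPKM. Its columns of log2 fold change, FDR and log10 values were not used.

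The total estimated count was 2952 for WT and 1570 for cdk1-as1. These totals are far below the number of clean reads per sample that the study states. How the listed counts relate to those reads was not given in the sources used here. All 239 listed nuclear genes were found in RefSeq R64 at the same start and end, with the listed length spanning the intron, and sequences, strands and introns come from it. log2 ratios of cdk1-as1 to WT carry no pseudocount, and no gene was filtered. Counts were rounded for 95% intervals, which are exact Poisson for sums, Clopper-Pearson for ratios and shares, and conditional exact for differences of ratios. The functions for medians, count ratios and Poisson intervals were tested on simulated data with whole counts. Those for shares and for differences of ratios were not part of that test. With 1 library per strain no p-value is given and no replicate check exists. All members are described, with intronic, aromatic and SUP-named genes for comparison and, per value, the nearest other gene. Members and lists were chosen with earlier results of these data known. Alternatives were other pseudocounts, equal totals, counts, RPKM, filters and identical values counted as 1. Python 3.11.15 with pandas 2.3.3, NumPy 2.4.6, SciPy 1.17.1 and matplotlib 3.10.9 was used.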

Additional observations from a re-analysis of the deposited data

How the results depend on the processing

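The number of tyrosine genes lower in cdk1-as1 was 8 as deposited, 2 at equal FPKM totals and 2 at equal count totals. The shares of nuclear genes with both values that were lower were 91.1%, 63.4% and 59.7%. With identical values counted as 1, 4 of 4 tyrosine values were lower, against 89.7% of nuclear values, so this lies near the background. Pseudocounts of 1, 100 and 1000 FPKM and the RPKM columns left the number of lower genes at 8. The median log2 ratio was −0.72 as deposited, −0.39 in counts, 0.53 at equal FPKM totals and 0.55 at equal count totals. The log2 ratio of the summed FPKM was 0.38 at equal totals, and, in splits chosen after the data were seen, −0.24 for reverse-strand genes and −1.18 for genes with T in the intron. That of the summed count was 0.35 at equal nuclear totals, 0.32 at equal totals over all listed genes, 0.19 for reverse-strand genes, −1.03 for genes with T and −0.29 for genes with C. Of single genes, SUP5, SUP7, SUP8 and SUP11 lay at 0.53 at equal FPKM totals and 0.55 at equal count totals, SUP6 at 0.98, 1.27 and, in counts as deposited, 0.33, and SUP4 at 1.06 and 0.84, while SUP2 and SUP3 stayed below 0. Equal totals add a constant to every gene, which is what turns these signs, and why the FPKM and count ratios of SUP6 differ in sign was not tested. No paired analysis was possible because there is 1 library per strain, and for the same reason no library could be left out. The counts of single genes, from 7.75 to 52.8, limit what can be told apart.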

Other observations

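The division by strand seen in the tyrosine genes holds for other tRNA families as well. Of the 56 distinct sequences among the 239 nuclear tRNA genes, 23 have copies on both strands, and the FPKM in WT differed between the strands in 23 of 23, 1 of them having no forward copy listed in WT. Of the 44 groups of more than 1 copy with the same sequence and strand, 43 held identical values, the exception being serine genes tS(UGA) on the forward strand, for which the higher copy is used below. In WT 22 of these sequences had values on both strands, the forward copies being higher in 12 and the reverse copies in 10, with a median fold of 5.80 between the strands and a range from 1.03 to 73.8. The largest fold was that of the glutamate genes tE(CUC), which are identical in sequence and had 855033 FPKM on the forward strand and 11588 on the reverse strand. In 16 of 18 sequences with values on both strands in both libraries, the same strand was higher in WT and in cdk1-as1. The families named here were chosen after their values were seen.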
